A study of Astyanax mexicanus with 12 samples.

Results

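Poly(A) RNA from the livers of wild-caught adult Astyanax mexicanus was compared between the cave form and the surface form of the fish, with 3 livers of each form, 6 of the 12 livers in the series. The cave fish are titled Pachón, the name of a cave population, and carry the label wild-caught. The surface fish are labelled surface and wild-caught, with no river named. The series also holds livers of laboratory fish of both forms, 3 each, used here only to ask where the difference between forms depends on whether fish were wild-caught or from the laboratory. All fish had been fasted for 12 h before dissection. Beyond the word adult, the labels state no age, and they state no sex, size, capture site, capture date or batch, so form cannot be told apart from where and when the fish were caught. Nothing in the labels says whether livers were pooled, and p-values measure only the spread between these samples. An exact permutation test of 3 livers against 3 cannot go below 0.10, so single genes are tested with limma, which shares the spread over all genes. Of 27420 genes in the table, 10776 reached 1 TPM in 3 or more of the 6 livers and were tested, and 1905 of these carry no name. TPM is a transcript level scaled for length and for the library's total. It holds no read counts, and the depth behind each value is unknown.

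The cave form of this species lives in dark caves with little food, and laboratory studies have described it as storing more fat and tolerating higher blood sugar than the surface form. Liver cells make most plasma proteins, which are folded in the endoplasmic reticulum with the help of chaperones and carried on by coated vesicles. They also make and export cholesterol, store glycogen, break down amino acids and oxidise foreign compounds, and in egg-laying females they make yolk proteins. These tasks order the groups of genes below.

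In wild-caught livers 2470 genes (22.9% of those tested) passed the test, 486 higher in cave fish (4.51%) and 1984 lower (18.4%), at an adjusted p under 0.05 in limma. The median log2 difference of all tested genes, cave minus surface, was -0.54 on the TPM scale. Median-of-ratios scaling, which centres each liver on the genes above 0 in every one, moved that median to -0.04 and left 958 genes (8.89%), 659 higher (6.12%) and 299 lower (2.77%). Lower genes outnumbered higher ones on the TPM scale and were outnumbered after scaling, so both counts are given for each gene group. Of the called genes, 482 of the higher and all 299 of those lower after scaling were called both ways, and none changed sign. The 3 livers of one form did not overlap with the 3 of the other for 787 genes higher in cave fish (7.30%) and 4304 lower (39.9%), or 1873 (17.4%) and 1699 (15.8%) after scaling.

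The livers of one form did not lie equally far from those of the other. On the first principal component after scaling, which held 61.9% of the variance, cave wild livers 1, 2 and 3 stood at 42.8, 67.5 and 52.7, and surface wild livers 1, 2 and 3 at -82.1, -73.8 and -7.06. The number of genes at 1 TPM or more was 9144, 10034 and 9975 in cave wild livers, against 10965, 10924 and 11045 in surface wild livers. Surface wild 3 was the surface liver nearest to the cave livers in 309 of the 486 higher genes and in 1581 of the 1984 lower genes. Without it 4521 genes passed, 921 higher and 3600 lower. There were 398, 286 and 313 genes without cave wild 1, 2 and 3 in turn, and 632 and 449 without surface wild 1 and 2. After scaling, these fits gave 438, 393 and 319 genes without a cave liver, and 461, 402 and 2656 without surface wild 1, 2 and 3. The counts of called genes in the lists below therefore come with ranges over these 6 fits, whose high end is the fit without surface wild 3 unless another liver is named. A list's count is set against the 18.4% lower and 4.51% higher of all tested genes, and nothing is read from a list whose share is near these. This is so for lower calls among initiation factors, fatty acid synthesis, lipases and apolipoproteins, nitrogen metabolism, cytochromes P450 and antioxidants. Values of single livers are listed in the order 1, 2 and 3 of each form.

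**Figure D1:**
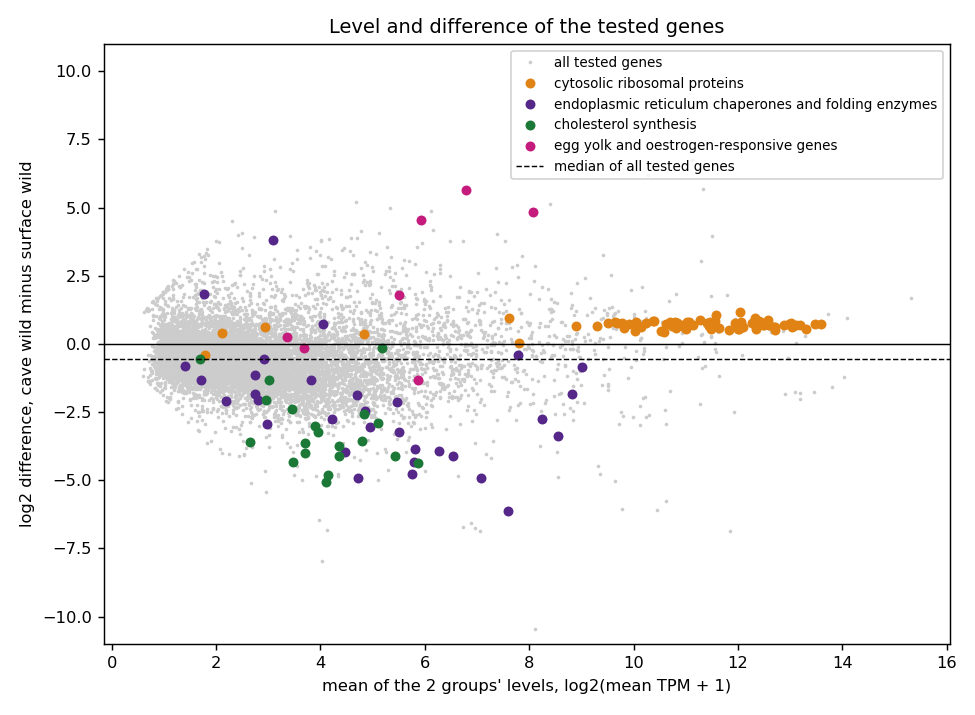
Each point is 1 of the 10776 tested genes, with the mean level of both groups on the horizontal axis (log2(mean TPM + 1)) and the log2 difference, cave wild minus surface wild, on the vertical axis. Of the cytosolic ribosomal protein genes 77 of 78 lie above 0, most of them at high levels, most endoplasmic reticulum chaperone and cholesterol synthesis genes lie below the median of all genes (dashed, -0.54), and 3 egg yolk and oestrogen-responsive genes lie above 4.

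Some of the largest differences were in genes listed at 0 in one form. The gene cbln5, of the cerebellin family of secreted proteins, was listed at 0 in all 3 cave wild livers and at 177, 218 and 407 TPM in surface wild livers. Another 2 genes at 0 in every cave wild liver were at 10 TPM or more in every surface wild liver, alkal2b, whose name other genes share, and 1 with no name, and 1 gene with no name showed the opposite. The relative of cbln5, cbln17, had 386, 33.1 and 20.9 TPM in cave wild livers, against 3542, 9438 and 2583 TPM in surface wild livers (log2 difference -6.06 ± 0.99, SE, adjusted p = 0.0107). Both were far apart between forms, with cave wild 1 the highest of the cave livers for cbln17. The matrix protein gene TINAGL1 had 3.26, 2.02 and 6.06 TPM in cave wild livers, against 232, 489 and 25.9 TPM in surface wild livers (-5.01 ± 0.96, adjusted p = 0.0178). For ISYNA1, which makes inositol phosphate from glucose phosphate, the values were 0.86, 6.38 and 0.87 TPM in cave wild livers, against 418, 168 and 11.2 TPM in surface wild livers (-5.01 ± 1.18, adjusted p = 0.0285). In both genes surface wild 3 was the lowest surface liver and lay closest to the cave livers. Both lacked overlap between the forms, which their choice required.

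On the other side, fam20cl, of a family of kinases in the secretory pathway, had 819, 702 and 704 TPM in cave wild livers, against 9.58, 26.7 and 9.71 TPM in surface wild livers (5.66 ± 0.48, adjusted p = 0.00119). The growth factor midkine, mdka, had 15.3, 66.4 and 69.1 TPM in cave wild livers, against 0.39, 0.2 and 0.85 TPM in surface wild livers (4.87 ± 0.58, adjusted p = 0.00324). The deiodinase dio1, which converts thyroid hormones, had 230.0, 249.9 and 448 TPM in cave wild livers, against 16.6, 10.7 and 46.9 TPM in surface wild livers (3.79 ± 0.59, adjusted p = 0.00899). All 3 cave livers were above all 3 surface livers in each of these, which the choice of these genes required. The antifreeze protein family gene afp4 had 1531, 769 and 1397 TPM in cave wild livers, against 1.18, 112 and 159 TPM in surface wild livers (5.12 ± 1.40, adjusted p = 0.0371). The gene prr15lb had 18.4, 28.4 and 18.2 TPM in cave wild livers, against 0, 0 and 1.27 TPM in surface wild livers (4.08 ± 0.41, adjusted p = 0.00219). The cyclic nucleotide-gated channel subunit gene cngb3.2, a family known from cone photoreceptors, was at 6.21, 16.3 and 22.4 TPM in cave wild livers, against 0, 0.12 and 0.15 TPM in surface wild livers (3.72 ± 0.43, adjusted p = 0.00305). Of these genes, fam20cl, mdka, prr15lb, dio1 and cngb3.2, and of the lower ones cbln5 and cbln17, kept the call with any 1 liver left out. The calls of afp4, TINAGL1 and ISYNA1 were lost without cave wild 1 or 2, and some of them also without cave wild 3 or surface wild 1 or 2 (adjusted p between 0.0615 and 0.107). After scaling all 10 were called, which the choice of these genes required. No surface liver reached 1 TPM for mdka or cngb3.2, and no cave liver for cbln5. Each of these passed the filter through 1 form alone.

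Genes for protein folding in the endoplasmic reticulum were lower in wild-caught cave livers. Of 32 tested chaperones and folding enzymes, 2 were called higher, 23 lower and 7 did not pass, and their median log2 difference was -2.30 beside -0.54 for all tested genes. After scaling 2 were higher and 11 lower, with a median of -1.69. The main chaperone of the compartment, hspa5 (BiP), had 51.1, 6.6 and 17.6 TPM in cave wild livers, against 1717, 1825 and 794 TPM in surface wild livers (-6.12 ± 0.69, adjusted p = 0.00305). The glycoprotein chaperone calreticulin, calr3b, had 55.8, 12.2 and 11.9 TPM in cave wild livers, against 712, 771 and 493 TPM in surface wild livers (-4.93 ± 0.61, adjusted p = 0.00363). In both genes the lowest surface liver stood far above the highest cave liver, which was cave wild 1. A lack of overlap was required in choosing them. The exchange factor hyou1 had 7.85, 1.01 and 3.01 TPM in cave wild livers, against 224, 139 and 60.4 TPM in surface wild livers (-4.91 ± 0.67, adjusted p = 0.00545), and the co-chaperone dnajb9b, counted with the degradation genes, 2.3, 1.28 and 1.34 TPM in cave wild livers, against 111, 112 and 31.7 TPM in surface wild livers (-4.84 ± 0.54, adjusted p = 0.00305). Both higher members were prolyl isomerases of the compartment. The first, fkbp7, had 27.8, 42.6 and 18.7 TPM in cave wild livers, against 0.36, 0.63 and 3.15 TPM in surface wild livers (3.80 ± 0.51, adjusted p = 0.00511). The second, fkbp10b, which in mammals acts on collagen, had 5.61, 3.13 and 7.97 TPM in cave wild livers, against 0.31, 1.19 and 0.88 TPM in surface wild livers (1.83 ± 0.36, adjusted p = 0.0190).

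Among genes that sense and relay folding stress, the share called lower was near the 18.4% of all tested genes. Of 20 tested sensors and transcription factors, none was called higher and 4 were lower, with a median of -0.68, and after scaling 1 was lower with a median of -0.09. The 4 lower genes included the stress factor atf3, with 0.43, 1.44 and 1.52 TPM in cave wild livers, against 7.21, 9.35 and 15.6 TPM in surface wild livers (-2.44 ± 0.38, adjusted p = 0.00949). The glutathione-degrading enzyme chac1 had 37.7, 72.4 and 11.6 TPM in cave wild livers, against 267, 248 and 238 TPM in surface wild livers (-2.93 ± 0.62, adjusted p = 0.0222). The sensor kinase eif2ak3 (PERK) had 0.5, 1.93 and 1.34 TPM in cave wild livers, against 11.97, 6.56 and 3.11 TPM in surface wild livers (-1.76 ± 0.46, adjusted p = 0.0333). For the other branches, 3 genes are given that were chosen after their values were seen. The factor xbp1 differed by -1.47 ± 0.56 (adjusted p = 0.0799), the sensor ern1 (IRE) by 0.31 ± 0.50 (adjusted p = 0.655) and ddit3 (CHOP) by -0.45 ± 0.47 (adjusted p = 0.485), none past the threshold. Genes of reticulum-associated degradation, which remove misfolded proteins, gave 20 lower and none higher of 32 tested, with a median of -1.41, and 6 lower after scaling, with a median of -0.79. Their scaffold sel1l had 5.21, 3.17 and 3.69 TPM in cave wild livers, against 40.3, 34.9 and 22.2 TPM in surface wild livers (-2.71 ± 0.40, adjusted p = 0.00766). With 1 liver left out, lower calls ranged from 10 (without cave wild 2 or 3) to 26 (without surface wild 3) for the chaperones, from 1 (without cave wild 1 or 3, or surface wild 1 or 2) to 7 for the sensors and from 2 (without cave wild 2) to 24 (without surface wild 3) for degradation. Of the folding and stress genes named, hspa5, calr3b, hyou1, dnajb9b, sel1l, atf3 and fkbp7 kept the call in each of the 6 fits. The calls of chac1, eif2ak3 and fkbp10b were lost without any of cave wild 1 and 3 and surface wild 1, and some also without cave wild 2 or surface wild 2 (adjusted p between 0.0523 and 0.103), and those of chac1 and eif2ak3 after scaling (adjusted p = 0.0657 and 0.0831).

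**Figure D2:**
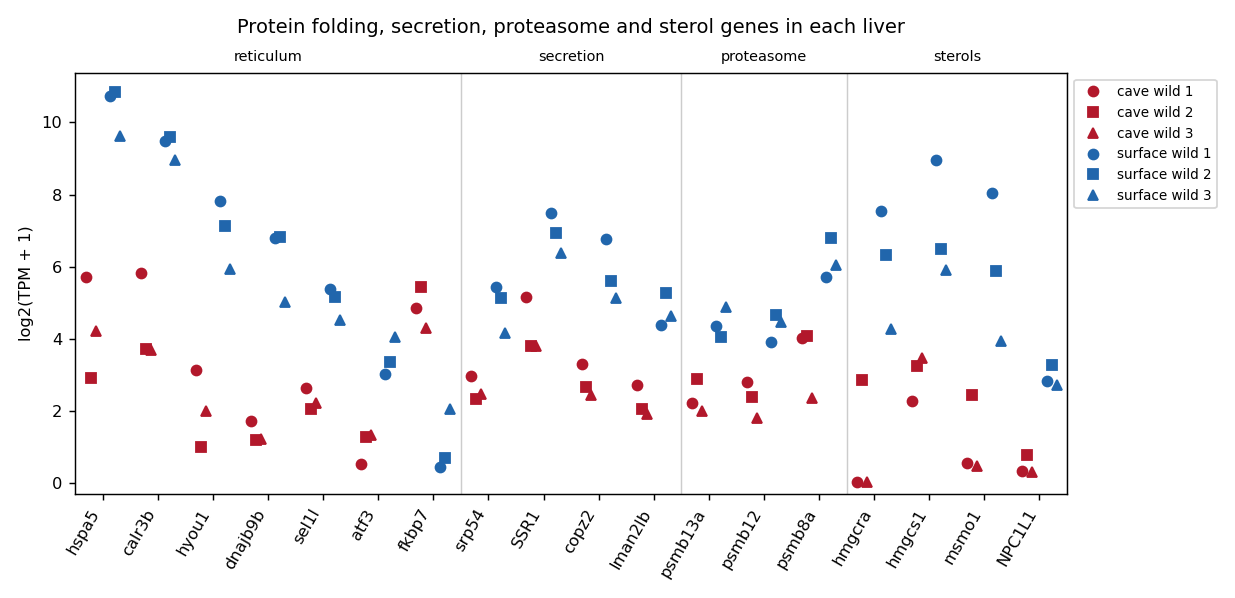
Each point is 1 liver, with cave wild livers in red left of surface wild livers in blue, for genes of protein folding, secretion, the proteasome and sterols, on an axis of log2(TPM + 1). The forms do not overlap in any gene shown, fkbp7 alone is higher in cave livers, and surface wild 3 is the lowest surface liver for hspa5, hyou1, hmgcra and msmo1. The genes were chosen among called ones. Of all tested genes 39.9% were lower in cave fish without overlap and 7.30% higher.

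Genes of other steps of secretion were lower in cave fish as well on the TPM scale. Of 35 tested genes of the translocon, signal peptidase and oligosaccharyltransferase, which bring new proteins into the reticulum and add sugar chains, 11 were lower and none higher, with a median of -1.55, and 2 were lower after scaling (-0.87). Signal recognition particle subunit srp54 had 6.84, 4 and 4.56 TPM in cave wild livers, against 42.2, 34.1 and 16.97 TPM in surface wild livers (-2.32 ± 0.45, adjusted p = 0.0184). The translocon-associated gene SSR1 had 34.6, 12.8 and 12.8 TPM in cave wild livers, against 178, 121 and 82.1 TPM in surface wild livers (-2.68 ± 0.53, adjusted p = 0.0193). Vesicle coats and cargo receptors gave 36 lower and none higher of 50 tested, with a median of -1.98, and 4 lower after scaling (-1.36). Coat subunit copz2 had 8.85, 5.35 and 4.43 TPM in cave wild livers, against 107, 48.1 and 33.8 TPM in surface wild livers (-3.03 ± 0.52, adjusted p = 0.0124). The cargo receptor lman2lb had 5.57, 3.12 and 2.77 TPM in cave wild livers, against 19.98, 37.8 and 23.9 TPM in surface wild livers (-2.54 ± 0.41, adjusted p = 0.0105).

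Subunits of the proteasome, the machine that degrades tagged proteins, were also mostly lower, with 31 lower and none higher of 50 tested and a median of -1.75. After scaling none of the 50 passed, while the median was -1.10. The 3 members with the smallest adjusted p were catalytic subunits that in zebrafish are encoded near class I antigen genes. Of these, psmb8a had 15.4, 15.9 and 4.12 TPM in cave wild livers, against 51.5, 111 and 65.7 TPM in surface wild livers (-2.70 ± 0.58, adjusted p = 0.0223, and 0.0695 after scaling). For psmb12 the values were 6.04, 4.26 and 2.49 TPM in cave wild livers, against 14.1, 24.3 and 20.9 TPM in surface wild livers (-2.01 ± 0.41, adjusted p = 0.0207, and 0.0797 after scaling), and psmb13a differed by -2.07 ± 0.41 (adjusted p = 0.0194, and 0.0633 after scaling). Antigen presentation genes, which share these subunits, gave 7 lower and none higher of 16 tested, and none after scaling. Of 8 tested macrophage markers 4 were lower as well, and the part of such cells was not tested. Leaving out 1 liver gave 1 to 22 lower translocon genes, 0 to 44 coat genes and 0 to 35 proteasome genes, each highest without surface wild 3 and lowest without cave wild 3, shared with cave wild 2 for translocon and coat genes and with surface wild 2 for translocon genes. Lower calls of antigen presentation ranged from 0 (without cave wild 3) to 8. None of the 7 secretion and proteasome genes named kept the call in every fit. Each lost it without cave wild 3, most without cave wild 2, and some without cave wild 1 or surface wild 1 or 2 (adjusted p between 0.0520 and 0.0850 over all such losses). That of SSR1 was also lost after scaling (adjusted p = 0.0610).

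Ribosomal protein genes lay in the other direction. Of 78 tested cytosolic ribosomal protein genes, 47 were higher in cave fish and none lower, with a median of 0.71, and 70 were higher after scaling, with a median of 1.39. The number called higher depended on the fit. It was 11 after quantile scaling, 3 with no trend in mean level and 0 with no filter, but 34 with a block for the replicate number and 60 with a filter at 5 TPM. Cytosolic ribosomal protein genes held 36.8, 33.4 and 36.5% of all TPM in cave wild livers, against 20.6, 20.9 and 24.2% in surface wild livers. All 3 cave livers lay above all 3 surface livers in 73 of the 78 genes on the TPM scale, against 7.30% of all tested genes. After scaling this held for 74 of the 78, against 17.4%. Most abundant of those named, rps24 had 16179, 15002 and 16001 TPM in cave wild livers, against 9879, 8867 and 9953 TPM in surface wild livers (0.72 ± 0.11, adjusted p = 0.00969). For rps19 the values were 6759, 5632 and 6466 TPM in cave wild livers, against 2527, 2768 and 3072 TPM in surface wild livers (1.17 ± 0.17, adjusted p = 0.00766). Stalk protein gene rplp0 differed by 0.95 ± 0.16 (adjusted p = 0.0110). In each of these genes the livers of one form lay closer to each other than to those of the other. Of 73 tested mitochondrial ribosomal protein genes none was higher and 4 were lower, with a median of -0.88, and none passed after scaling (-0.27).

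Other parts of the translation machinery split. Of 66 tested initiation and elongation factors, 7 were higher and 14 lower, and after scaling 11 were higher and none lower. Elongation factor subunit eef1da had 1490.1, 1387 and 1493 TPM in cave wild livers, against 833, 739 and 633 TPM in surface wild livers (0.99 ± 0.25, adjusted p = 0.0317). The initiation factor subunit eif3m differed by 1.28 ± 0.33 (adjusted p = 0.0322), whereas the scaffold eif4g1a of the cap-binding complex differed by -2.33 ± 0.51 (adjusted p = 0.0245). Aminoacyl-tRNA synthetases, which load amino acids onto tRNA, gave 1 higher and 13 lower of 35, and 1 higher and none lower after scaling. The higher one was the aspartate enzyme dars, with 373, 208 and 350.1 TPM in cave wild livers, against 116, 109 and 98.5 TPM in surface wild livers (1.47 ± 0.39, adjusted p = 0.0344), and among the lower ones the leucine enzyme larsb differed by -2.88 ± 0.61 (adjusted p = 0.0224). Ribosome biogenesis genes, which process ribosomal RNA in the nucleolus, gave 1 higher and 30 lower of 57, with a median of -1.81, and 1 higher and none lower after scaling (-1.20). The helicase ddx21 was the higher one, with 1226, 876 and 1448 TPM in cave wild livers, against 420.1, 442 and 527 TPM in surface wild livers (1.33 ± 0.30, adjusted p = 0.0263). The processing factor bop1 had 2.8, 0.88 and 0.71 TPM in cave wild livers, against 15.8, 13.4 and 4.4 TPM in surface wild livers (-2.25 ± 0.51, adjusted p = 0.0257). Splicing factors gave none higher and 30 lower of 88, none after scaling, with snrpb2 at -2.22 ± 0.46 (adjusted p = 0.0214).

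With 1 liver left out, higher ribosomal protein calls ranged from 1 (without cave wild 1) to 67 (without surface wild 3), and lower biogenesis calls from 0 (without cave wild 1, 2 or 3, or surface wild 1 or 2) to 51 (without surface wild 3). Lower calls ranged from 0 to 56 among splicing factors, from 0 to 28 among initiation and elongation factors and from 0 to 18 among synthetases, with 0 in each without cave wild 2 or 3, or surface wild 1 or 2. Mitochondrial ribosomal proteins had 0 lower calls in every fit that kept surface wild 3 and 28 without it, and higher calls of the factors ranged in the same way from 0 to 7. Only rps19 of the 12 genes named for translation, of which mrpl45 of the mitochondrial ribosome (-1.95 ± 0.49, adjusted p = 0.0318) is 1, kept the call in all 6 fits. The others lost it in at least 1 of the fits without cave wild 1, 2 or 3, or surface wild 1 or 2 (adjusted p between 0.0503 and 0.118). The genes eif4g1a, larsb, bop1, mrpl45 and snrpb2 also lost it after scaling. Since TPM adds up to the same total in every liver, a larger share for ribosomal protein genes leaves a smaller share for the others. With the 50 most abundant genes left out, of whatever kind, and the rest rescaled, 1068 genes were lower, against 1984, and 467 higher, against 486. How much of the lower counts goes with the ribosomal share itself was not tested.

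**Figure D3:**
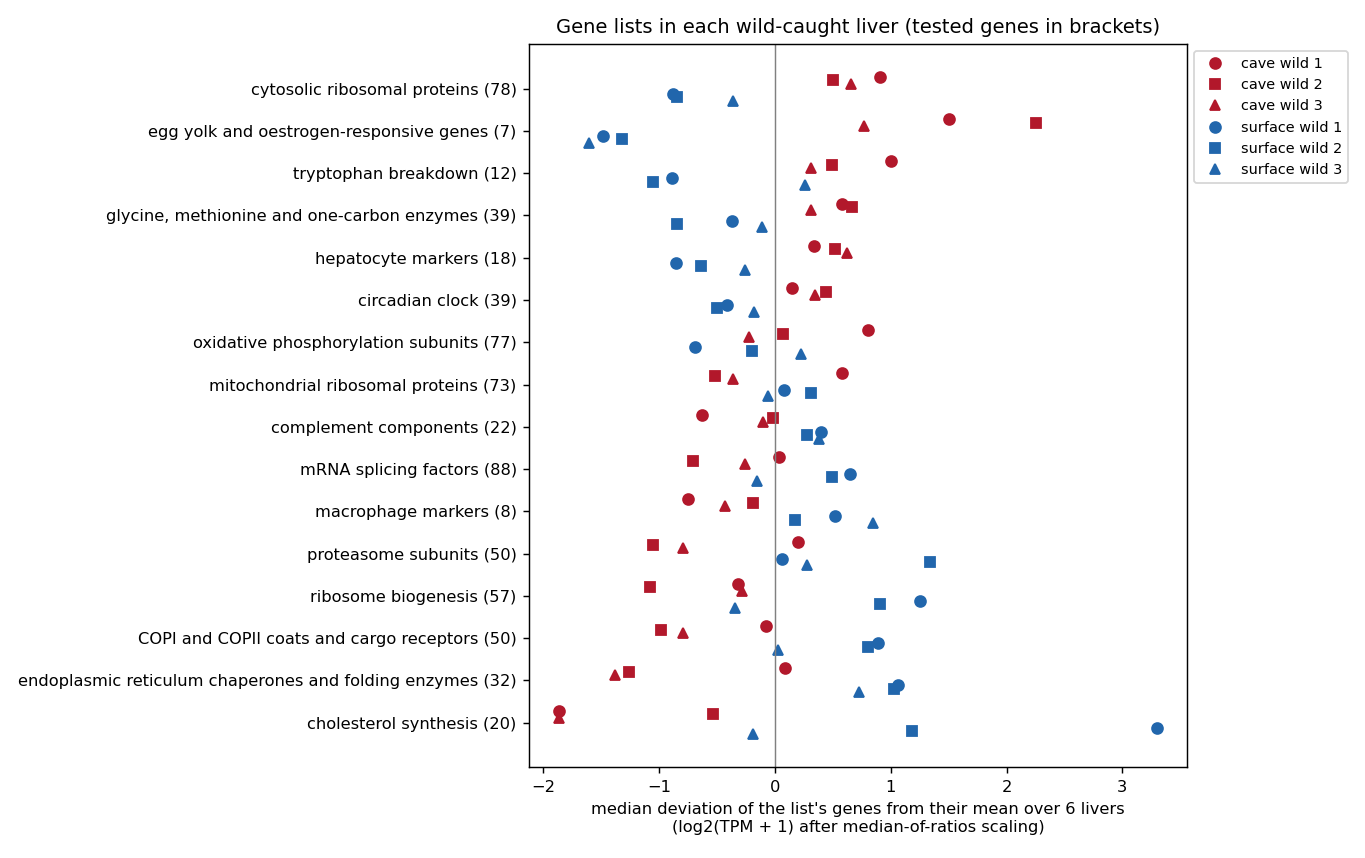
Each point is the median, over the tested genes of a list, of the deviation of 1 liver from the gene's mean over the 6 livers, in log2(TPM + 1) after median-of-ratios scaling, with cave wild livers in red drawn above surface wild livers in blue. All cave livers lie above all surface livers for cytosolic ribosomal proteins, yolk genes, tryptophan breakdown, one-carbon enzymes, hepatocyte markers and clock genes. They all lie below for complement, macrophage markers, coats, endoplasmic reticulum chaperones and cholesterol synthesis. The forms overlap for the other lists drawn. Of the cave livers, cave wild 1 is the highest for endoplasmic reticulum, coat and proteasome genes.

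Cholesterol synthesis was lower in cave fish, with the widest spread among surface livers. Of 20 tested enzymes none was higher and 14 were lower, with a median of -3.58, and 5 were lower after scaling (-3.04). Their summed level was 0.00557, 0.0187 and 0.00640% of TPM in cave wild livers, against 0.408, 0.0879 and 0.0265% in surface wild livers. Surface wild 1 thus held most of the signal, and the lowest surface liver was still above the highest cave liver. The rate-limiting reductase hmgcra had 0.02, 6.26 and 0.02 TPM in cave wild livers, against 186, 79.1 and 18.3 TPM in surface wild livers (-5.08 ± 0.97, adjusted p = 0.0178). The synthase hmgcs1, one step before it, differed by -4.12 ± 0.78 (adjusted p = 0.0170) and the sterol oxidase msmo1 by -4.80 ± 0.97 (adjusted p = 0.0204). Of 21 tested genes that sense, take up or move sterols, 1 was higher and 5 lower, and 1 and 2 after scaling. NPC1L1, which takes up cholesterol, had 0.27, 0.71 and 0.24 TPM in cave wild livers, against 6.15, 8.74 and 5.62 TPM in surface wild livers (-2.47 ± 0.29, adjusted p = 0.00305). The exporter ABCA1, which loads cholesterol onto high-density lipoprotein, had 0.26, 0.05 and 0.39 TPM in cave wild livers, against 48.4, 33.98 and 2 TPM in surface wild livers (-3.82 ± 0.91, adjusted p = 0.0286). By contrast abcg8, of the pump that sends sterols into bile, had 18.4, 24.2 and 27.2 TPM in cave wild livers, against 1.51, 2.89 and 15.5 TPM in surface wild livers (2.14 ± 0.66, adjusted p = 0.0476). Lower cholesterol synthesis calls ranged from 0 (without cave wild 1) to 18 (without surface wild 3), those of sterol sensing and uptake from 1 (without cave wild 1 or 3, or surface wild 1 or 2) to 7, and of the 6 sterol genes named NPC1L1 alone kept the call in all 6 fits. The other 5 lost it without cave wild 1 and in some of the fits without cave wild 2 or 3 or surface wild 1 or 2 (adjusted p between 0.0520 and 0.141). No cave liver reached 1 TPM for NPC1L1 or ABCA1. Both thus passed the filter through the surface livers, where they were high, and nothing is read from them about the list.

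Lipid genes were mixed. Hepatic lipase lipca, which cuts lipids of circulating lipoproteins, had 266, 248 and 189 TPM in cave wild livers, against 1.67, 2.38 and 54.1 TPM in surface wild livers (4.88 ± 1.03, adjusted p = 0.0221). Surface wild 3 was far above the other surface livers, yet below all cave livers. Apolipoprotein E, apoeb, which carries lipids to receptors, had 112, 32.4 and 349.9 TPM in cave wild livers, against 2962, 6027 and 2528 TPM in surface wild livers (-5.02 ± 0.76, adjusted p = 0.00841). The most abundant apolipoprotein gene, apoa1b, overlapped between forms, with 18542, 11695 and 36453 TPM in cave wild livers, against 3981, 9957 and 26982 TPM in surface wild livers (0.96 ± 0.64, adjusted p = 0.270). Of all 22 tested lipases, apolipoproteins and assembly genes, 1 was higher and 4 lower, and 1 and 1 after scaling. The lipoprotein assembly protein mttp differed by -2.07 ± 0.57 (adjusted p = 0.0380, and 0.165 after scaling).

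Fatty acid synthesis and desaturation gave 2 higher and 6 lower of 29 tested, and 2 and 2 after scaling. Citrate lyase aclya, which supplies acetyl-CoA for lipid synthesis, had 11.2, 7.25 and 2.98 TPM in cave wild livers, against 85, 270.3 and 67.3 TPM in surface wild livers (-3.99 ± 0.64, adjusted p = 0.0102). The desaturase scd had 17.4, 53.1 and 17.4 TPM in cave wild livers, against 1087, 367 and 88.4 TPM in surface wild livers (-3.65 ± 0.87, adjusted p = 0.0289, and 0.0628 after scaling). An elongase of long-chain fatty acids, elovl8b, was higher, with 111, 65.9 and 70.6 TPM in cave wild livers, against 7.82, 7.86 and 39.1 TPM in surface wild livers (2.47 ± 0.64, adjusted p = 0.0328). The summed level of these genes did not separate the forms, at 0.660, 1.71 and 0.0628% of TPM in cave wild livers, against 0.266, 0.865 and 0.265% in surface wild livers. Among 22 tested triglyceride and lipid droplet genes none was higher and 6 were lower, and 1 and 1 after scaling. The droplet coat gene plin2 had 10.01, 12 and 10.1 TPM in cave wild livers, against 122, 149.9 and 55.1 TPM in surface wild livers (-3.12 ± 0.48, adjusted p = 0.00870). Fatty acid oxidation and ketone genes gave 1 higher and 5 lower of 51, and 1 and 1 after scaling. The higher one, the mitochondrial dehydrogenase hadh, had 163, 83.9 and 139 TPM in cave wild livers, against 10.6, 8.43 and 75.3 TPM in surface wild livers (2.62 ± 0.77, adjusted p = 0.0434), and the peroxisomal reductase decr2 was lower (-1.45 ± 0.27, adjusted p = 0.0167) at no more than 3.78 TPM in any liver.

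None of 16 tested bile acid genes passed with or without scaling, while 3 were higher and 1 lower without surface wild 3. The member with the highest mean over both forms, cyp8b2, of the sterol hydroxylase family that shapes bile acids, overlapped between forms, with 255, 145 and 446 TPM in cave wild livers, against 36.8, 72.7 and 216 TPM in surface wild livers (1.60 ± 0.68, adjusted p = 0.110). The calls of apoeb, aclya and plin2 held with any 1 liver left out. The other 6 called lipid genes, lipca, mttp, scd, elovl8b, hadh and decr2, each lost the call without any 1 of cave wild 1, 2 and 3, and all but decr2 without surface wild 1 or 2 (adjusted p between 0.0543 and 0.133). With 1 liver left out, lower calls ranged from 1 to 9 in fatty acid synthesis and in triglyceride genes and from 1 to 6 in lipases and apolipoproteins, and higher calls in oxidation from 0 to 11, each highest without surface wild 3 and lowest without cave wild 1 or 2 among others. Lower oxidation calls ranged from 0 (without any 1 cave liver) to 5.

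Few genes of glucose metabolism passed. Glycolysis gave none higher and 3 lower of 22 tested, gluconeogenesis 1 higher and none lower of 14, and glycogen metabolism 1 higher and 2 lower of 22. After scaling these lists gave 1, 1 and 3 higher genes and none lower. On the TPM scale the share called higher in gluconeogenesis and glycogen metabolism was near the 4.51% of all tested genes. The share called lower in glycolysis was near the 18.4%, so nothing is read from these lists. Liver glycogen synthase gys2 had 83.7, 81.8 and 90.6 TPM in cave wild livers, against 333, 383 and 173 TPM in surface wild livers (-1.71 ± 0.42, adjusted p = 0.0305), lost after scaling (-1.03 ± 0.42, adjusted p = 0.153). Glycogenin gyg1b, which starts a glycogen chain, was higher, with 158, 86.9 and 134 TPM in cave wild livers, against 19.8, 14.7 and 77.1 TPM in surface wild livers (2.07 ± 0.63, adjusted p = 0.0474). The higher gene of gluconeogenesis was the coactivator ppargc1a, which drives gluconeogenic and mitochondrial genes in fasted mice (1.14 ± 0.31, adjusted p = 0.0365), at 2.61 to 3.9 TPM in cave wild livers and 0.29 to 1.36 TPM in surface wild livers. Lower calls ranged from 0 to 10 in glycolysis and from 0 to 3 in glycogen metabolism, with 0 in both without any 1 cave liver or surface wild 1, and higher calls in glycogen metabolism from 0 (in every fit that kept surface wild 3) to 6.

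Of the mitochondrial subunits of oxidative phosphorylation few passed, with 3 higher and 2 lower of 77 tested, and 4 and 1 after scaling. The share called higher was near the 4.51% of all tested genes (6.12% after scaling), so nothing is read from it. The cytochrome oxidase subunit cox4i2 had 122, 115 and 122 TPM in cave wild livers, against 11.1, 3.36 and 20.3 TPM in surface wild livers (3.54 ± 0.59, adjusted p = 0.0112). Cave livers lay close together, while surface livers spread over a wide range below them. ATP synthase subunit atp5mc3b differed by 1.68 ± 0.36 (adjusted p = 0.0222), and the oxidase subunit cox6b1 was lower, with 10.8, 20.7 and 8.25 TPM in cave wild livers, against 157, 28.5 and 185 TPM in surface wild livers (-2.84 ± 0.73, adjusted p = 0.0324, and 0.105 after scaling). The citric acid cycle gave 1 higher and 3 lower of 27, and 1 and 0 after scaling, the higher one malate dehydrogenase mdh2 (1.17 ± 0.35, adjusted p = 0.0442). Uncoupling proteins of the inner membrane went both ways, with ucp1 at 369, 493 and 604 TPM in cave wild livers, against 99.8, 23.3 and 130.3 TPM in surface wild livers (2.81 ± 0.63, adjusted p = 0.0253). Its relative ucp2 had 1.12, 2.08 and 2.03 TPM in cave wild livers, against 8.04, 5.24 and 11.6 TPM in surface wild livers (-1.72 ± 0.36, adjusted p = 0.0215, and 0.0712 after scaling). Of the 9 genes named for glucose metabolism and mitochondria, cox4i2 alone kept the call in all 6 fits. The others lost it without any 1 of the cave livers, and most also without surface wild 1 or 2 (adjusted p between 0.0501 and 0.145). In oxidative phosphorylation, higher calls ranged from 1 (in every fit that kept surface wild 3) to 4 and lower ones from 0 (without cave wild 1 or 2) to 4, and lower calls in the citric acid cycle from 0 (without any 1 cave liver or surface wild 2) to 9.

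A few enzymes that break down amino acids were higher in cave fish, while most did not pass. The branch for phenylalanine and tyrosine gave 1 higher of 9 tested, tryptophan 2 of 12 and branched-chain amino acids 1 of 18, with none lower in any, and 1, 3 and 1 higher after scaling. The share for branched-chain amino acids was near the 4.51% higher of all tested genes (6.12% after scaling), so nothing is read from it. Homogentisate dioxygenase hgd, of tyrosine breakdown, had 760.4, 412 and 574 TPM in cave wild livers, against 95.6, 44.6 and 102 TPM in surface wild livers (2.88 ± 0.45, adjusted p = 0.00949). Both enzymes that open tryptophan were higher, with tdo2b at 104, 344 and 213 TPM in cave wild livers, against 35.6, 25.8 and 44.6 TPM in surface wild livers (2.48 ± 0.52, adjusted p = 0.0219). The other, ido1, had 21.02, 28.6 and 9.51 TPM in cave wild livers, against 0.39, 4.23 and 2 TPM in surface wild livers (2.76 ± 0.57, adjusted p = 0.0209). In each of these 3 genes, chosen for small adjusted p, the lowest cave liver was above the highest surface liver. This held for 1 of the 9 phenylalanine and tyrosine genes and 3 of the 12 tryptophan genes, against 7.30% of all tested genes. After scaling it held for 4 and 5 of them, against 17.4%. Higher calls ranged from 0 (without cave wild 2 or surface wild 1) to 4 for tryptophan, and from 1 to 2 and from 0 to 3 for the other two branches, lowest in every fit that kept surface wild 3.

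Glycine, methionine and one-carbon enzymes gave 6 higher and 5 lower of 39 tested, with a median of 0.30, and 8 higher and 1 lower after scaling (0.84). Summed, they held 1.47, 1.15 and 1.5% of TPM in cave wild livers, against 0.583, 0.431 and 0.803% in surface wild livers. Much of this was ahcy, which clears homocysteine's precursor in the methylation cycle, with 8338, 4409.9 and 7232 TPM in cave wild livers, against 1389.7, 1715 and 2567 TPM in surface wild livers (1.81 ± 0.31, adjusted p = 0.0116). The folate enzyme aldh1l1 had 48.2, 191 and 113 TPM in cave wild livers, against 6.39, 2.16 and 7.48 TPM in surface wild livers (4.14 ± 0.61, adjusted p = 0.00774). Sarcosine dehydrogenase sardh differed by 4.08 ± 0.87 (adjusted p = 0.0222). Lower members included agxtb, which converts glyoxylate to glycine, at 108, 160.4 and 106 TPM in cave wild livers, against 707, 439.7 and 999 TPM in surface wild livers (-2.46 ± 0.41, adjusted p = 0.0115, and 0.0520 after scaling). The methionine enzyme mat2aa, which makes the methyl donor, had 2.57, 0.8 and 3.17 TPM in cave wild livers, against 42.1, 43.6 and 8.58 TPM in surface wild livers (-3.14 ± 0.64, adjusted p = 0.0205).

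Among 30 tested genes of glutamate, proline, histidine and nitrogen metabolism, 2 were higher and 5 lower, and 2 and 1 after scaling. The aminotransferase got2a had 938, 449.5 and 833 TPM in cave wild livers, against 143, 60.7 and 105 TPM in surface wild livers (2.85 ± 0.46, adjusted p = 0.0102), and histidine ammonia-lyase hal differed by 1.61 ± 0.40 (adjusted p = 0.0305). Polyamine synthesis moved the other way at its first enzyme, ornithine decarboxylase odc1, with 1.81, 0.47 and 2.02 TPM in cave wild livers, against 76.9, 61.6 and 27.01 TPM in surface wild livers (-4.47 ± 0.50, adjusted p = 0.00305). The polyamine acetyltransferase sat1a.2 differed by -2.18 ± 0.47 (adjusted p = 0.0239, and 0.0910 after scaling). Amino acid transporters gave none higher and 7 lower of 27, and 2 and 3 after scaling. The shared heavy chain slc3a2b had 0.99, 0.8 and 1.56 TPM in cave wild livers, against 44.2, 29.5 and 17.1 TPM in surface wild livers (-3.80 ± 0.42, adjusted p = 0.00280), and slc7a10a, a carrier of small neutral amino acids, differed by -2.48 ± 0.32 (adjusted p = 0.00397). Calls of hgd, aldh1l1, got2a, odc1, slc3a2b and slc7a10a held in all 6 fits with 1 liver left out. The other 8 amino acid genes lost it in at least 1 fit without cave wild 1, 2 or 3, or surface wild 1 or 2 (adjusted p between 0.0501 and 0.113). Higher calls in the one-carbon list ranged from 1 (without cave wild 1 or 3) to 11 (without surface wild 3) and lower ones from 0 (without cave wild 3) to 7 (without surface wild 3). Those of nitrogen metabolism ranged from 1 (in every fit that kept surface wild 3) to 12, and those of transporters from 2 (without cave wild 1 or 2, or surface wild 2) to 11.

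Genes that handle foreign compounds and oxidants differed in both directions. Of 13 tested genes of cytochrome P450 enzymes and their electron donors, 2 were higher and 2 lower, and 2 and 1 after scaling. The one induced by aryl hydrocarbons, cyp1a, had 18.5, 22.7 and 72.02 TPM in cave wild livers, against 5.48, 0.46 and 1.84 TPM in surface wild livers (3.43 ± 0.67, adjusted p = 0.0186). Cave wild 3 was the highest, and cyp1a was the only called gene of the 3 tested in the aryl hydrocarbon receptor list. A further member, cyp2u1, differed by 3.28 ± 0.89 (adjusted p = 0.0365), with 26.1, 180.0 and 86.7 TPM in cave wild livers, against 2.11, 5.11 and 23.9 TPM in surface wild livers. The electron donor cyb5b was lower (-2.57 ± 0.50, adjusted p = 0.0186). Conjugation enzymes, which make compounds soluble, gave 3 higher and 1 lower of 20, and 4 and 0 after scaling, among them the glucuronosyltransferase ugt5c1 (2.02 ± 0.47, adjusted p = 0.0278) and the microsomal glutathione transferase mgst1.2 (1.65 ± 0.42, adjusted p = 0.0322).

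Antioxidant genes gave 4 higher and 8 lower of 36, and 5 and 2 after scaling, while their summed share of TPM differed little, at 0.447, 0.551 and 0.438% in cave wild livers, against 0.439, 0.431 and 0.429% in surface wild livers. The lipid peroxidase gpx4a had 686, 1055 and 414 TPM in cave wild livers, against 43.2, 96.3 and 85.5 TPM in surface wild livers (3.22 ± 0.49, adjusted p = 0.00815). The secreted superoxide dismutase sod3a differed by 3.19 ± 0.88 (adjusted p = 0.0371). Lower genes included pgd, which makes NADPH in the pentose phosphate pathway, with 12.5, 6.41 and 5 TPM in cave wild livers, against 244, 195 and 36.1 TPM in surface wild livers (-3.85 ± 0.73, adjusted p = 0.0175), and the peroxiredoxin prdx1 (-2.51 ± 0.49, adjusted p = 0.0185). Of the 9 genes named for foreign compounds and oxidants, gpx4a alone kept the call in all 6 fits. The other 8 lost it without cave wild 2 or 3, and some also without cave wild 1 or surface wild 1 or 2 (adjusted p between 0.0532 and 0.123), while all 9 passed after scaling. Higher calls ranged from 0 (without cave wild 2 or 3, or surface wild 2) to 4 for cytochromes P450, from 0 to 8 for conjugation and from 1 to 8 for antioxidants, the last pair lowest in every fit that kept surface wild 3, and lower antioxidant calls from 0 (without cave wild 2 or 3) to 10.

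Several plasma proteins were lower in cave fish. Haptoglobin hp, which binds free haemoglobin, had 157, 114 and 372 TPM in cave wild livers, against 13564, 16222 and 4883 TPM in surface wild livers (-5.76 ± 0.55, adjusted p = 0.00219). Complement genes gave 1 higher and 8 lower of 22 tested, with a median of -1.04, and 1 higher and 2 lower after scaling (-0.52). Among the lower ones, c7b and c9 belong to the pore-forming complex. The gene c7b had 10.6, 4.9 and 15.4 TPM in cave wild livers, against 2273, 2017 and 376 TPM in surface wild livers (-6.85 ± 0.73, adjusted p = 0.00261). For c9 the values were 346, 669.9 and 513 TPM in cave wild livers, against 2859, 2820.5 and 1702 TPM in surface wild livers (-2.28 ± 0.34, adjusted p = 0.00795). The central component c3a.1 differed by -2.19 ± 0.46 (adjusted p = 0.0222, and 0.0667 after scaling). Higher was vitronectin, vtnb, which holds back the pore, with 328, 386 and 389 TPM in cave wild livers, against 46.3, 49.3 and 192 TPM in surface wild livers (2.25 ± 0.57, adjusted p = 0.0317).

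Coagulation, acute phase and iron genes had shares of lower calls near the 18.4% of all tested genes. Coagulation gave none higher and 4 lower of 20, and 0 and 1 after scaling. Fibrinogen chains fgb and fgg moved together, fgb with 3727, 4534 and 5511 TPM in cave wild livers, against 20273, 21895 and 8096 TPM in surface wild livers (-1.76 ± 0.35, adjusted p = 0.0200, and 0.0776 after scaling), and fgg with a difference of -1.79 ± 0.38 (adjusted p = 0.0224, and 0.0847 after scaling). Factor V, f5, differed by -2.58 ± 0.47 (adjusted p = 0.0157). Of 20 tested genes of the acute phase and of interleukin-6 signalling, which raises haptoglobin and fibrinogen in mammals, none was higher and 4 lower, and 3 and 1 after scaling. The receptor il6r had 45.01, 46.3 and 50.6 TPM in cave wild livers, against 298, 158 and 136 TPM in surface wild livers (-1.95 ± 0.43, adjusted p = 0.0249, not past the threshold after scaling), and its transducer stat3 2.11, 5.47 and 10.9 TPM in cave wild livers, against 70.3, 68.7 and 19.2 TPM in surface wild livers (-2.90 ± 0.66, adjusted p = 0.0260, and 0.0534 after scaling). Of 23 tested iron and haem genes none was higher and 5 were lower, and 1 and 2 after scaling. The iron exporter slc40a1, of hepatocytes and macrophages, had 9.26, 13.6 and 12.7 TPM in cave wild livers, against 64.5, 72.9 and 39.5 TPM in surface wild livers (-2.19 ± 0.42, adjusted p = 0.0183). Calls of hp, c7b and c9 held in all 6 fits with 1 liver left out. The other 8 genes of this group lost the call without cave wild 1 or 2 or surface wild 2, and some also without cave wild 3 or surface wild 1 (adjusted p between 0.0516 and 0.107). Lower complement calls ranged from 2 (without cave wild 1 or surface wild 1) to 9 (without surface wild 3), those of coagulation from 0 (without cave wild 1 or 2, or surface wild 2) to 7, those of acute phase genes from 1 (without cave wild 1 or 2, or surface wild 1 or 2) to 7 and those of iron genes from 0 (without cave wild 1 or 2) to 8.

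**Figure D4:**
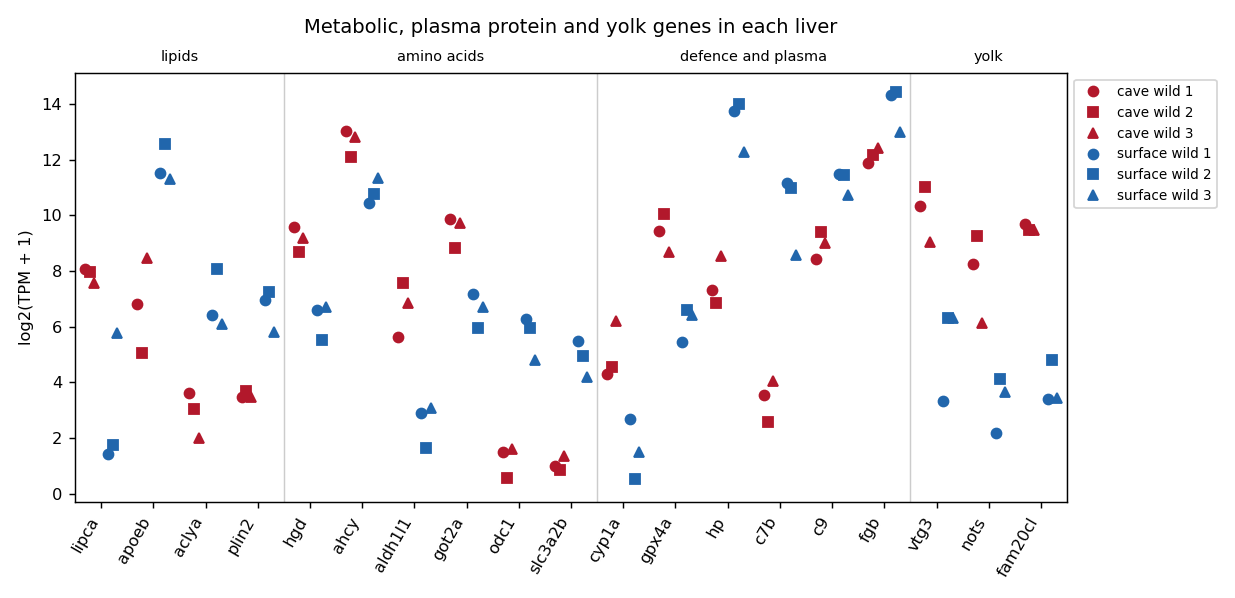
Each point is 1 liver, with cave wild livers in red left of surface wild livers in blue, for genes of lipids, amino acids, foreign compounds and oxidants, plasma proteins and yolk, on an axis of log2(TPM + 1). The forms do not overlap in any gene shown, and lipca in surface wild 3 stands well above the other 2 surface livers. The genes were chosen among called ones. Of all tested genes 39.9% were lower in cave fish without overlap and 7.30% higher.

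Egg yolk and oestrogen-responsive genes gave 3 higher and none lower of 7 tested, with or without scaling. On the TPM scale 5 of the 7 had positive differences and 2 negative ones, the lowest at -1.32. In 1 member all cave livers lay below all surface livers, with or without scaling. Of all tested genes 39.9% did so on the TPM scale and 15.8% after scaling. The yolk precursor vtg3 had 1296, 2091 and 523 TPM in cave wild livers, against 8.97, 78.3 and 78.4 TPM in surface wild livers (4.82 ± 0.85, adjusted p = 0.0136). The aspartic protease nots, known from livers of female fish, had 301, 605 and 68.5 TPM in cave wild livers, against 3.49, 16.4 and 11.6 TPM in surface wild livers (4.55 ± 0.83, adjusted p = 0.0151), and fam20cl, described above, is the third. The oestrogen receptor esr1, chosen after its value was seen, differed by 1.80 ± 0.75 (adjusted p = 0.101). Sex goes with these genes in fish and is not given, so it cannot be told apart from form here. Of 10 oocyte markers in the table, bmp15 alone was tested and it was higher, at 2.88, 4.96 and 6.09 TPM in cave wild livers, against 0.32, 1.93 and 0.91 TPM in surface wild livers (1.49 ± 0.37, adjusted p = 0.0315). Among surface livers only surface wild 2 reached 1 TPM. The gene thus passed the filter through the cave livers, where it was high, and nothing is read from it about the list. The oocyte genes figla and gdf9 were listed at 0 in all 6 livers, and the other 7 reached at most 0.730 TPM. The list summed to between 3.6e-04 and 8.2e-04% of TPM in cave wild livers, against 8.9e-05 to 2.4e-04% in surface wild livers. Most of each cave wild sum was bmp15, and the summed shares without it overlapped between forms.

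Clock genes gave 3 higher and 2 lower of 39, and 7 and 0 after scaling. The repressor nr1d1 (Rev-erb alpha) had 5.16, 10.7 and 6.47 TPM in cave wild livers, against 2.2, 1.46 and 1.61 TPM in surface wild livers (1.57 ± 0.34, adjusted p = 0.0229). Its relative nr1d4b differed by 1.26 ± 0.34 (adjusted p = 0.0358) and the output factor dbpb by 1.44 ± 0.40 (adjusted p = 0.0387). The activator clockb was lower by a small amount (-0.83 ± 0.26, adjusted p = 0.0489), lost after scaling (-0.35 ± 0.24, adjusted p = 0.345). Time of day at dissection is not given. None of 14 tested growth hormone and IGF genes passed, with or without scaling. Among them igfals, which carries IGF in plasma, had 83.9, 199 and 287 TPM in cave wild livers, against 21.9, 18.3 and 214 TPM in surface wild livers (1.89 ± 0.91, adjusted p = 0.146). Hypoxia genes gave none higher and 1 lower of 25, and 1 and 0 after scaling, the lower one the oxygen-sensitive factor epas1b (-1.96 ± 0.40, adjusted p = 0.0204, and 0.0575 after scaling), and insulin signalling none higher and 2 lower of 25, and 0 and 1 after scaling, among them gsk3aa (-1.57 ± 0.27, adjusted p = 0.0133), a kinase that restrains glycogen synthase. None of the 8 called genes of yolk, clock, hypoxia and insulin named here with vtg3 and nots kept the call in all 6 fits. Each lost it without cave wild 2, most without cave wild 1 or 3, some without surface wild 1 or 2, and dbpb also without surface wild 3 (adjusted p between 0.0508 and 0.161). The third called yolk gene, fam20cl, is not among these 8 and kept the call in all 6 fits, as given above. Higher yolk calls were 1 without cave wild 1 or 2 and 3 in the other fits, and 1 lower yolk call came without surface wild 3 only. Clock calls ranged from 0 to 6 higher and from 0 to 5 lower, with 0 in both directions without cave wild 2 or 3, or surface wild 2. Lower calls of hypoxia and insulin genes ranged from 0 to 4, with 0 in both without cave wild 2 or 3, and growth hormone and IGF genes gave 2 higher and 1 lower without surface wild 3.

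Marker genes show what cells the samples held. All 6 livers expressed hepatocyte markers, at 14.7, 13.2 and 14.8% of TPM in cave wild livers, against 9.83, 8.97 and 10.1% in surface wild livers. This separation rested on fabp10a, given below, and the summed shares without it overlapped between forms. Of 18 tested hepatocyte markers 3 were higher and 2 lower, and 5 and 0 after scaling. The fatty acid binding protein fabp10a, the most abundant, had 87229, 78203 and 48790.0 TPM in cave wild livers, against 31927, 11055 and 27425 TPM in surface wild livers (1.70 ± 0.37, adjusted p = 0.0245), and the retinol carrier rbp4 differed by 1.97 ± 0.52 (adjusted p = 0.0355). The 2 lower ones were the fibrinogen chains fgb and fgg. Less RNA of a marker can mean fewer cells of a type or less RNA in each cell, and bulk samples do not separate these.

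Of 8 tested macrophage markers none was higher and 4 were lower, and 1 was lower after scaling, slc40a1, which is of hepatocytes as well. The markers summed to 0.00247 to 0.00585% of TPM in cave wild livers, against 0.0165 to 0.0213% in surface wild livers, without overlap. Singly, 4 of the 8 lay lower in cave fish without overlap, with or without scaling. Of all tested genes 39.9% did so on the TPM scale and 15.8% after scaling. MPEG1, a pore protein of macrophages, had 1.58, 2.3 and 2.44 TPM in cave wild livers, against 8.38, 4.49 and 12.8 TPM in surface wild livers (-1.53 ± 0.39, adjusted p = 0.0322, and 0.138 after scaling), and the lysosomal protease lgmn differed by -2.07 ± 0.53 (adjusted p = 0.0323, and 0.116 after scaling). Among 3 tested neutrophil markers 2 were lower, csf3r by -1.35 ± 0.37 (adjusted p = 0.0367, and 0.0898 after scaling), at no more than 4.42 TPM. The part of these cells in the complement, antigen presentation and iron results was not tested. Thrombocyte markers gave 1 higher and 1 lower of 3 tested, gp1bb (1.70 ± 0.33, adjusted p = 0.0191) and thbs1a (-1.24 ± 0.28, adjusted p = 0.0261, and 0.0628 after scaling), and B and plasma cell markers 1 lower of 2, btk (-1.16 ± 0.24, adjusted p = 0.0209, and 0.0566 after scaling). None of these 3 genes exceeded 8.25 TPM in any liver. No T and NK cell marker of 11 reached the filter. None of the tested erythrocyte (2), endothelial (8), stellate (4), bile duct (7) or exocrine pancreas (7) markers passed, with or without scaling, among them hbba2, a haemoglobin chain (-0.38 ± 0.65, adjusted p = 0.677), kdrl, a receptor of vessel lining (-0.85 ± 0.40, adjusted p = 0.140), and krt8, a keratin (-0.41 ± 0.69, adjusted p = 0.666). Pancreas markers summed to 0.171, 0.159 and 0.260% of TPM in cave wild livers, against 0.266, 0.127 and 1.23% in surface wild livers, so surface wild 3 held the most. Its lipase PNLIPRP2 had 160.1, 127 and 310.4 TPM in cave wild livers, against 629, 329.7 and 2505 TPM in surface wild livers (-2.12 ± 0.71, adjusted p = 0.0583). Of 5 tested intestine markers 2 were higher, and 3 after scaling. The 2 were rbp2b (1.5 ± 0.44, adjusted p = 0.0418) and anpepb (2.49 ± 0.63, adjusted p = 0.0317), while cdx1b was listed at 0 in all 6 livers and the list overlapped between forms in summed share. None of the 11 called markers named here with bmp15 kept the call in all 6 fits. All but gp1bb, which lost it without surface wild 2 alone (adjusted p = 0.0623), lost it without cave wild 1 and without cave wild 2 and most without cave wild 3 or surface wild 1 or 2 (adjusted p between 0.0502 and 0.125). Macrophage calls ranged from 0 (without any 1 cave liver) to 4, and higher hepatocyte calls from 0 (without cave wild 2) to 6. Neutrophil and intestine markers had 0 calls in every fit that kept surface wild 3 and 2 each without it.

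Laboratory livers served to ask which of these differences depended on the wild setting. In a fit of all 12 livers the form difference in wild-caught fish minus that in laboratory fish, the interaction, passed for 655 of 12895 tested genes (5.08%), and for 271 (2.10%) after scaling. Of the 2470 genes called in wild-caught livers 339 were among the 655. Of the 116 called genes named above 30 were, of which 15 passed after scaling as well. Those 116 were chosen by their wild-caught test, which shares values with the interaction, so 30 of 116 is not set against 5.08%. In 23 of the 30 the laboratory difference had the opposite sign. Its size ran from small (0.06 for dnajb9b) to large (-5.45 for lipca), and laboratory differences were not tested by themselves. The largest interaction was that of lipca. In laboratory livers lipca had 0.710 ± 0.332 TPM in cave fish, against 81.0 ± 40.7 TPM in surface fish (SD, n = 3 each), the reverse of the wild-caught livers (interaction 10.33 ± 1.27, adjusted p = 0.00277). The oxidase subunit cox6b1 had 64.1 ± 22 TPM in cave fish, against 5.78 ± 3.60 TPM in surface fish of the laboratory (-6.24 ± 0.98, adjusted p = 0.00897). Likewise psmb8a had 19.4 ± 10.4 TPM in cave fish, against 2.41 ± 0.705 TPM in surface fish of the laboratory (-5.14 ± 0.76, adjusted p = 0.00665). In these 3 genes the order of the forms was opposite in the wild-caught and laboratory livers.

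For other genes the laboratory forms were close to each other. Ornithine decarboxylase odc1 had 1.82 ± 0.277 TPM in cave fish, against 1.40 ± 1.09 TPM in surface fish of the laboratory (-4.80 ± 0.61, adjusted p = 0.00313), both near the level of wild-caught cave fish. For slc3a2b the laboratory values were 3.06 ± 0.510 TPM in cave fish, against 3.52 ± 0.0351 TPM in surface fish (-3.64 ± 0.44, adjusted p = 0.00277). Wild-caught surface livers thus stood above both laboratory groups and wild-caught cave livers in these genes. The chaperone partner dnajb9b was also highest in wild-caught surface livers (-4.89 ± 0.89, adjusted p = 0.0155), and hspa5 and hmgcra passed as well (-5.88 ± 1.36, adjusted p = 0.0363, and -5.82 ± 1.17, adjusted p = 0.0223), though hspa5 did not after scaling (adjusted p = 0.0726). The tyrosine enzyme hgd had 318 ± 77.2 TPM in cave fish, against 405 ± 131 TPM in surface fish of the laboratory (3.21 ± 0.56, adjusted p = 0.0134), so that wild-caught surface livers were the lowest of the 4 groups.

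Other wild-caught differences had a laboratory counterpart whose interaction did not pass, which does not show that they are equal. The gene cbln5 was listed at 0 in 2 of 3 laboratory cave livers and at 0.49 TPM in the third, against 306, 1332 and 170.49 TPM in laboratory surface livers (interaction 0.52 ± 0.86, adjusted p = 0.686). For prr15lb the laboratory values were 44.4 ± 22.4 TPM in cave fish, against 3.24 ± 2.82 TPM in surface fish (0.38 ± 0.89, adjusted p = 0.780). The cytochrome cyp1a had 27.3 ± 17.2 TPM in cave fish, against 2.37 ± 0.841 TPM in surface fish of the laboratory (0.55 ± 0.92, adjusted p = 0.694), and complement c7b 26.1 ± 40.9 TPM in cave fish, against 684 ± 932 TPM in surface fish (-1.74 ± 1.76, adjusted p = 0.499). Of the 30 interactions 13 kept the call in each of 12 fits with 1 liver left out, among them those of lipca, cox6b1, psmb8a, odc1, slc3a2b, dnajb9b and hgd. The other 17 lost it in at least 1 (adjusted p up to 0.102), hspa5 in all fits but those without cave wild 1, surface wild 3 or surface lab 2, and hmgcra without cave wild 1, cave wild 3 or cave lab 2. The number of genes past the threshold was 1147 without surface lab 2, 3035 without surface wild 3 and 161 (without cave wild 3) to 316 (without surface wild 1) in the other 10 fits.

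**Figure D5:**
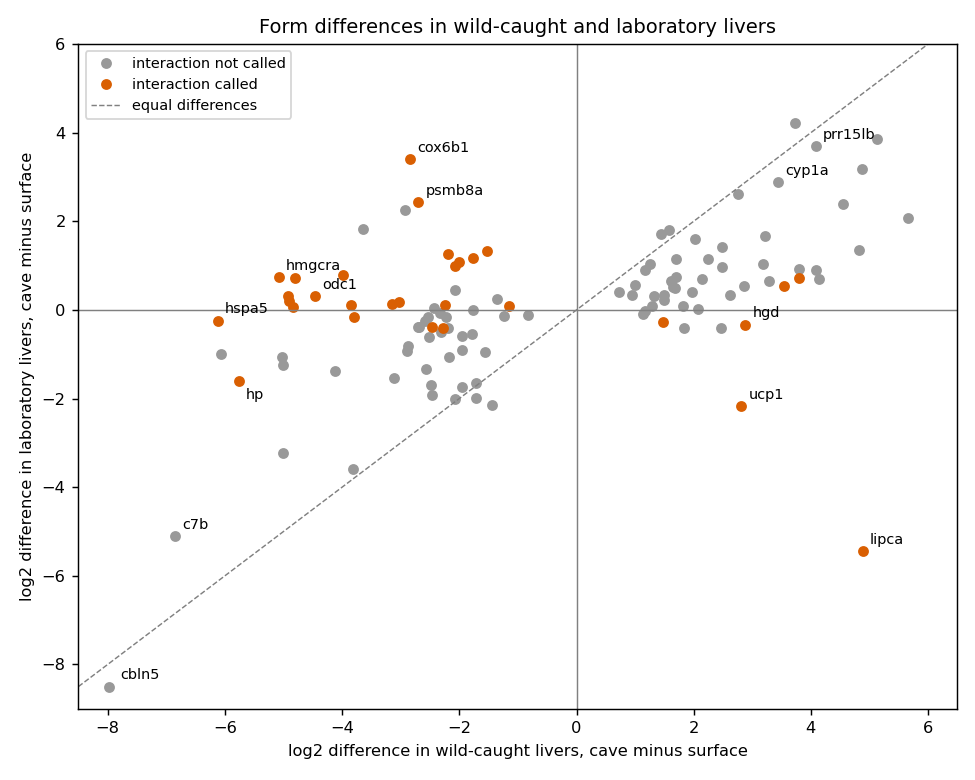
Each point is 1 of the 116 called genes named in the text, with the log2 difference, cave minus surface, in wild-caught livers on the horizontal axis and in laboratory livers on the vertical axis, and the 30 genes with a called interaction in orange. lipca, cox6b1 and psmb8a lie far from the dashed line of equal differences with opposite signs, while cbln5, c7b, cyp1a and prr15lb lie near it.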

How the data were processed

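The deposited table gives TPM for each Ensembl gene in each liver, made by the authors with RSEM, per the submitters' processing notes. Per the labels' protocols, TruSeq Stranded mRNA libraries were sequenced as single reads of 75 nt on an Illumina NextSeq instrument. The submitters' processing notes name bcl2fastq 2.18 and STAR 2.6.1c, the usual tools for demultiplexing and alignment. The RSEM version, the build and the annotation are not stated there. TPM adds to the same total in every liver, so a few very abundant genes lower all others, and reads of near-identical genes can be shared between them.

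Genes that reached 1 TPM in 3 or more of the 6 wild-caught livers were tested on log2(TPM + 1) with limma 3.58.1 in R 4.3.3 (moderated test with a trend in mean level, Benjamini-Hochberg adjustment over all tested genes, threshold 0.05). A fold change on this scale understates the change of low genes. The fit was repeated after median-of-ratios scaling over genes above 0 in all libraries. The interaction with the setting was fitted over all 12 livers. The same scripts were tested on simulated data with known changes. Members and the 67 gene lists, 53 of pathways and complexes and 14 of cell types, were chosen with earlier results of these data known. Lists were matched by gene name, and unnamed genes enter none. Genes named in the text are a selection from 207 that a rule picked, namely those with the largest differences, the called members of each list with the smallest adjusted p and, for some lists, abundant members that did not pass, each with a fixed number per list, and the few genes named beyond that are marked as chosen after their values were seen. Genes with the largest differences were taken only from those called both with and without scaling and without overlap between the forms. Lists are described by counts and medians, with no test of a list.

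Same-numbered livers of the forms did not deviate together (correlation of their deviations from the group means 0.115, -0.0253 and -0.0124 for numbers 1, 2 and 3), so the numbers were not taken to pair the livers. Alternatives were a block for the replicate number, a pseudocount of 0.1, a filter at 5 TPM or none, quantile scaling, leaving out the 50 most abundant genes, no trend, each liver left out, all 12 livers in one fit, and surface wild 1 and 2 both left out. Leaving out each liver after median-of-ratios scaling was added after seeing the data. No sequences were used.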

Additional observations from a re-analysis of the deposited data

Results flagged for a closer look

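The form difference in wild-caught livers minus that in laboratory livers passed the threshold for 30 of the genes described, by limma with Benjamini-Hochberg adjustment over all 12895 genes tested. A negative value means that the gene was lower in cave fish in the wild-caught livers than the laboratory difference would give. For genes of protein folding and secretion the log2 interaction was -5.88 for hspa5, -5.25 for calr3b, -5.12 for hyou1, -4.89 for dnajb9b, -2.93 for eif2ak3 and -3.21 for copz2, with fkbp7 at 3.09. Among proteasome and translation genes it was -5.14 for psmb8a, -3.09 for psmb12, -3.05 for psmb13a and -2.36 for bop1, with dars at 1.74. For sterol and lipid genes it was -5.82 for hmgcra, -5.50 for msmo1, -2.09 for NPC1L1 and -4.77 for aclya, with lipca at 10.33. Among mitochondrial genes it was -6.24 for cox6b1, with cox4i2 at 3.00 and ucp1 at 4.97. For amino acid and NADPH genes it was -4.80 for odc1, -3.64 for slc3a2b, -3.28 for mat2aa and -3.97 for pgd, with hgd at 3.21. Among plasma protein, iron and immune cell genes it was -4.15 for hp, -1.87 for c9, -3.46 for slc40a1, -2.85 for MPEG1 and -1.25 for btk. After median-of-ratios scaling 15 of the 30 passed. Those that did not were hspa5, calr3b, hyou1, copz2, psmb13a, bop1, msmo1, aclya, mat2aa, pgd, hp, c9, slc40a1, MPEG1 and btk. The place and time of capture and rearing go with the setting and cannot be told apart from it.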

How the results depend on the processing

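Of 2470 genes called, 486 higher and 1984 lower, median-of-ratios scaling left 958, with 299 lower, quantile scaling 850, with 312 lower, and removal of the 50 most abundant genes 1535, with 1068 lower. With no filter 232 passed, 113 higher and 119 lower. With all 12 livers in one fit 4009 passed, 3383 lower. With surface wild 1 and 2 both left out 144 passed, 16 higher and 128 lower, the lone surface liver being assumed to vary like the other groups. With 1 liver left out, 286 to 4521 passed, 142 to 921 higher and 144 to 3600 lower. After scaling, the fits without cave wild 1, 2 and 3 and surface wild 1, 2 and 3 in turn gave 438, 393, 319, 461, 402 and 2656 genes, of which 300, 306, 243, 313, 271 and 1418 were higher and 138, 87, 76, 148, 131 and 1238 lower. A pseudocount of 0.1 (2332), a filter at 5 TPM (1719) and no trend (2266) kept the count within 1.5 times. Single lists could still move, as with no trend 3 cytosolic ribosomal protein genes were called higher, against 47. The replicate block gave 1978 genes, 461 higher and 1517 lower, and 524 interactions, although the numbers do not pair the livers. Interactions numbered 271 after median-of-ratios scaling, 232 after quantile scaling, 305 with the filter at 5 TPM, against 655, and 161 to 3035 with 1 liver left out. Of all 2470 called genes 781 kept the call after median-of-ratios scaling. Of the 116 called genes described, 30 kept the call in all 6 fits with 1 liver left out, 86 after scaling, 111 with the block and 113 in the fit of 12 livers. Those 116 were chosen for small adjusted p, some also for their call after scaling, so these counts do not stand for all called genes. No called value changed sign. The cause of these shifts was not tested. Depth is unknown, so no limit of detection can be given.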
